A study of Homo sapiens with 6 samples.

Results

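The potassium channel genes were the rows of the count table whose NCBI gene identifier belongs to a protein-coding gene with a symbol made of KCN, further letters and a number. The rule found 95 genes among 28395 rows, of which 19171 were protein coding. It takes in the channel pores and the auxiliary KCNAB, KCNE, KCNIP and KCNMB subunits. The table held bulk RNA-sequencing counts of U251MG, an established human glioblastoma cell line, in 3 WT and 3 NUAK2-CR libraries. WT is the wildtype line. NUAK2-CR denotes cells in which the kinase gene NUAK2 was targeted by CRISPR-Cas9 with a single guide, delivered in lentiviral vectors, followed by sorting of single cells and PCR screening of the clones. The sample labels name no clone for the libraries and do not say whether the replicates were separate cultures, so p-values measure only the spread between these libraries, which may be technical. If the NUAK2-CR libraries came from 1 clone, a difference they share cannot be told apart from a property of that clone.

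Potassium channels let potassium ions pass the membrane down their gradient. Voltage-gated channels (Kv) open on depolarization, calcium-activated channels on a rise of internal calcium, inward rectifiers (Kir) pass current best near or below the potassium equilibrium potential, and two-pore domain channels (K2P) carry the background leak. In the brain, astrocytes are known for Kir4.1 and for buffering of extracellular potassium, fast-spiking neurons for Kv3 channels, and glioma cells for calcium-activated channels linked to volume change and migration. Auxiliary subunits bind the pores and change their gating or their delivery to the membrane.

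Depth ranged from 29648445 to 55574081 counts per library, and the potassium channel genes took 0.0395 to 0.0417% of the counts in WT and 0.0468 to 0.0470% in NUAK2-CR. Values are given as counts normalized to the mean effective library size, in the order of replicates 1, 2 and 3. Means carry the SD over 3 libraries. Normalized counts of all 95 members summed to 15205 ± 626 in WT and 17586 ± 136 in NUAK2-CR. Without KCNC1 the sum was not higher in NUAK2-CR, at 15156.5 ± 634 in WT and 14168 ± 312 in NUAK2-CR. Differences were tested by the quasi-likelihood method of edgeR, and p-values were adjusted over all 14873 genes that passed its filter on low counts. The targeted gene NUAK2 (gene 81788, chromosome 1 of hg38) had 1926, 1457 and 1580.1 in WT and 799, 961 and 849 in NUAK2-CR. All 3 NUAK2-CR libraries were below all 3 WT libraries (log2 fold change -0.93, standard error 0.11, adjusted p = 1.8e-05), and transcript remained in each. Of 10 astroglial and glioma markers 7 fell in NUAK2-CR and SOX9 and SLC1A3 did not pass the test. Over all tested genes 28.2% were called lower. The marker list had a summed level of 335652 to 373068 in WT and 149117 to 156029 in NUAK2-CR. GFAP, the astrocyte intermediate filament, fell from 88323 ± 5494 to 14984 ± 1129, while AQP4, the astrocyte water channel, had 2 counts in each WT library and 0 in NUAK2-CR, all within a floor of 3 counts. Marker lists of other cell types are given after the channel results.

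Promoter windows of 5 members are shown because these genes were the Kv gene with the largest increase, KCNC1, and the 4 K2P genes whose log2 fold change was over 2 in size: KCNC1, KCNK3 and KCNK2 rose, and KCNK13 and KCNK5 fell. Each is the 250 bases before the annotated start from RefSeq (GRCh38.p14), 5′ to 3′ on the gene's strand, and capitals mark the searched motifs on either strand: the GC box GGGCGG and TEAD GGAATG.
KCNC1: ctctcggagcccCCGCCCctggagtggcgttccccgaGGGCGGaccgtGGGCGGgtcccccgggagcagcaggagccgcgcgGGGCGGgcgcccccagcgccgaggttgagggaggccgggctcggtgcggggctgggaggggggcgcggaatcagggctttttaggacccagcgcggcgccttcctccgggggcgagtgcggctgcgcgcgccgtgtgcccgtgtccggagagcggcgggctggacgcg
KCNK3: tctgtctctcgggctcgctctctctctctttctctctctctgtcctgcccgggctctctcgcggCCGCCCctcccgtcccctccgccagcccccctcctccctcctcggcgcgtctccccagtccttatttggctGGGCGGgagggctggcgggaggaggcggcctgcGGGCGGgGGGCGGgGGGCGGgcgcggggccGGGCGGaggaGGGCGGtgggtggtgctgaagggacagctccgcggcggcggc
KCNK2: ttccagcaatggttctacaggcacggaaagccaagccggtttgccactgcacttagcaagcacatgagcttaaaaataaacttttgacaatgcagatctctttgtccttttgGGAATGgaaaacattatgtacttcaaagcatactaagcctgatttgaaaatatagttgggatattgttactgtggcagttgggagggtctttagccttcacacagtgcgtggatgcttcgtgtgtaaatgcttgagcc
KCNK13: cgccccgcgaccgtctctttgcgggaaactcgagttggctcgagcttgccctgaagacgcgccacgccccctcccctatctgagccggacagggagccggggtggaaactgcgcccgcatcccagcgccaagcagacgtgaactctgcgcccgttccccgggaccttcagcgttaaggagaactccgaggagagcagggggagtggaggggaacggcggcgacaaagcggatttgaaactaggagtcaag
KCNK5: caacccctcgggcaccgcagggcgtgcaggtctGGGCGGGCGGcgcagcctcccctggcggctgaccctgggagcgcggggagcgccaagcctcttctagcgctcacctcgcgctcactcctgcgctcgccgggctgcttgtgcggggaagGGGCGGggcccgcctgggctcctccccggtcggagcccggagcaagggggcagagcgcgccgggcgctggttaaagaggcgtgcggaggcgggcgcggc
The windows lie at chr11:17734531-17734780, chr2:26692472-26692721, chr1:215005292-215005541 and chr14:90061744-90061993 on the plus strand and chr6:39229476-39229725 on the minus strand. TEAD factors act with YAP in the Hippo pathway, to which NUAK2 is linked, and the TATA box TATAAA was searched as well. The KCNC1 window was 79.2% G and C, with 36 CpG pairs and 4 GC boxes. KCNK3 was similar, at 76.4% with 27 CpG pairs and 7 GC boxes, and so was KCNK5, at 77.2% with 31 CpG pairs and 3 GC boxes. In contrast, the KCNK2 window was 42.8% G and C, with 4 CpG pairs, 0 GC boxes and 1 TEAD match. KCNK13 had 64.8% and 25 CpG pairs with no match to any of the 3 motifs. Overlapping matches of a motif were counted, and no motif contains another. Of 27305 windows of all genes, 42.2% held a GC box, 11.2% a TATA box and 11.95% a TEAD match. Among the 71 potassium channel genes with a window, the shares were 57.7%, 9.86% and 11.3%. Among the 35 of them that were tested for expression they were 71.4%, 8.57% and 11.4%. The windows of all genes include genes that were not tested for expression, and shares for all tested genes were not computed. The shares of the 35 thus have no matched background. Genes that rose and genes that fell thus both included GC-rich windows with GC boxes. A match is a run of letters and not a measured binding site.

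Of the 95 potassium channel genes, 45 had enough counts to be tested. Among these, 14 were higher and 12 lower in NUAK2-CR and 19 did not pass the test. The share called was 57.8%, close to the 54.5% of all tested genes. Higher calls made up 31.1% of the tested members against 26.3% of all genes, and lower calls 26.7% against 28.2%. With the study's further threshold of a log2 fold change over 2 in size, 6 members were higher and 5 lower, 24.4% of those tested, against 4.72% of all genes. The WT and NUAK2-CR libraries did not overlap in 28 of the 45, or 62.2%, against 61.4% of all genes. Tested members had a median log2 fold change of 0.10, against -0.01 over all genes, and a median size of change of 1.10, against 0.37. Many members lie near the count filter, and a gene that passed it only through the group where it was high had to differ, so the shares are a description of these genes. Likewise the sign of the median depends on which low genes are counted: without the filter it was -0.20 over 82 members.

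**Figure D1:**
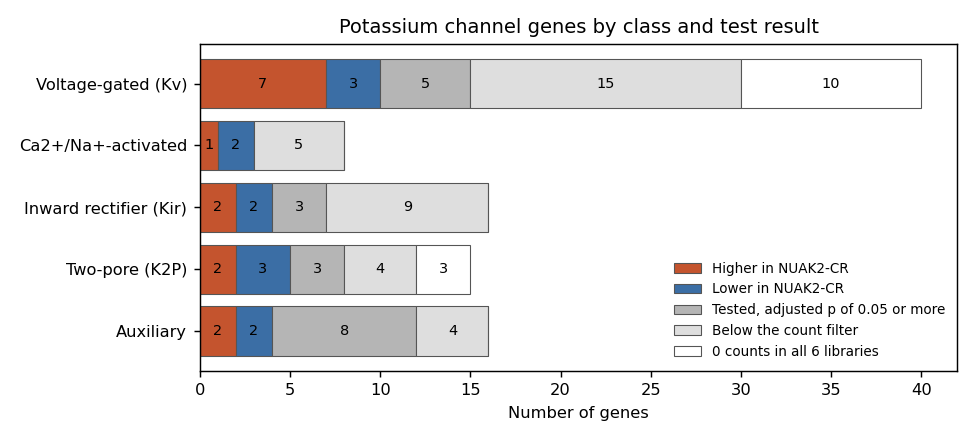
Number of potassium channel genes (x axis) in each class, divided into those higher or lower in NUAK2-CR with an adjusted p under 0.05, those tested without a call, those below the count filter and those with 0 counts in all 6 libraries. The 40 Kv genes hold 7 of the 14 higher calls, while 8 of the 12 tested auxiliary genes were not called.

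The 50 members that were not tested were low in both groups. Of these, 13 had 0 counts in all 6 libraries, which allows up to 3 counts in each: KCNA1, KCNA3, KCNA4, KCNA5, KCNA6, KCNA10, KCNB2, KCNC2, KCNS2, KCNV1, KCNK16, KCNK17 and KCNK18. Most of the KCNA group, the Shaker-type channels of axons, was thus not detectable at this depth. The other 37 had at most 72 counts over the 6 libraries, a total reached by KCNG2. Of the 25 untested Kv genes, 10 had no count, and KCNS and KCNV, which modify other Kv channels, had no tested member. Neither had KCNT, the sodium-activated channels, nor KCNU1. In bulk RNA, fewer cells that express a gene and less RNA per cell cannot be told apart, which holds for every difference given here.

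**Figure D2:**
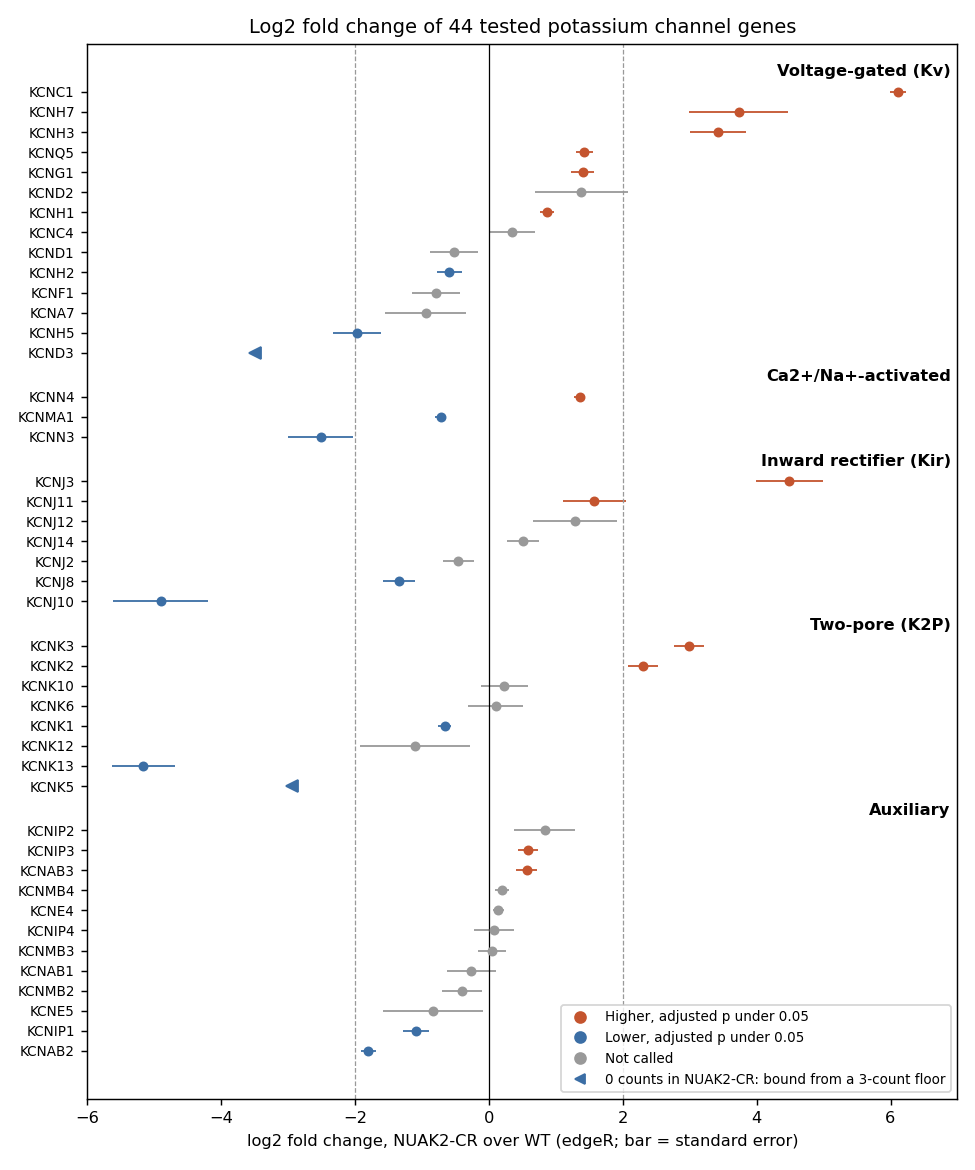
Log2 fold change of NUAK2-CR over WT (x axis) for 44 of the 45 tested potassium channel genes, by class; points are edgeR estimates, bars their standard errors, dashed lines mark -2 and 2, and triangles mark bounds for genes with 0 counts in NUAK2-CR. Values run from 6.12 for KCNC1 to -5.17 for KCNK13, and 10 of the 12 auxiliary genes lie within 1 log2 unit of 0.

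The Kv class held the largest increase. Normalized counts of its 40 members summed to 1352 ± 33.2 in WT and 5691 ± 181 in NUAK2-CR, and without KCNC1 the sums were 1303 ± 39.8 and 2273 ± 72.8. Of 15 tested members 7 rose, 3 fell and 5 did not pass the test. KCNC1 (gene 3746, chromosome 11) encodes Kv3.1, a fast delayed rectifier of fast-spiking neurons. It had 56.5, 47.3 and 40.8 in WT and 3158, 3511 and 3587 in NUAK2-CR, so that every NUAK2-CR library was far above every WT library. The mean rose from 48.2 ± 7.85 to 3418 ± 229 (log2 fold change 6.12, standard error 0.12, adjusted p = 5.34e-12). Leaving out any 1 library gave log2 fold changes of 6.02 to 6.28. Its paralogue KCNC4 (Kv3.4) had means of 38.5 and 49.96, with overlapping libraries (adjusted p = 0.417), and KCNC2 was at 0 throughout. Hence the difference between the groups in the KCNC subfamily was carried by KCNC1.

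The KCNH subfamily, the ether-a-go-go channels, had 8 members and 5 tested, of which 3 rose and 2 fell. KCNH1, or Kv10.1, a channel known for its expression in tumours, had 349, 377 and 381 in WT and 623, 707 and 684 in NUAK2-CR. The groups did not overlap (log2 fold change 0.87, standard error 0.10, adjusted p = 1.73e-05), although 28.1% of its exonic bases overlap an unclassified transcript on the opposite strand and 15.7% the pseudogene IPO8P1 on the same strand, neither of which is a row used here. KCNH3, or Kv12.2, a forebrain channel, had 8.64, 3.86 and 18.3 in WT and 91.4, 97.7 and 135 in NUAK2-CR. All 3 NUAK2-CR libraries were higher (log2 fold change 3.43, standard error 0.42, adjusted p = 2.18e-05), and the log2 fold change was 4.02 without WT replicate 3, the highest WT library. KCNH7, or Kv11.3, had 0.664, 5.79 and 0 in WT and 38.1, 25.3 and 23.1 in NUAK2-CR. The WT level rested on 6 counts in replicate 2 and 1 in replicate 1 (log2 fold change 3.73, standard error 0.74, adjusted p = 0.000837). Without WT replicate 2, 1 WT count stood against 72 counts in NUAK2-CR, a ratio of 69.4 with an exact 95% interval of 12.1 to 2778 that covers counting error only, and only if each count was a separate fragment. The fallers, named after their values were seen, were KCNH5 (Kv10.2), from 68.7 ± 2.67 to 17.4 ± 7.81 with a log2 fold change of -1.97 just short of the limit of 2, and KCNH2 (Kv11.1, the hERG channel of the heart), from 193 ± 36.4 to 127 ± 13.3 with -0.59. The KCNH2 call (adjusted p = 0.0194) was lost when WT replicate 3 was left out, and also when either replicate 1 or replicate 3 of NUAK2-CR was. Thus close relatives moved in opposite directions, KCNH1 up and KCNH5 down, and KCNH7 up and KCNH2 down.

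Among the other Kv genes, KCNQ5 and KCNG1 were named by the rule, and both rose. KCNQ5, or Kv7.5, which contributes to the M current that holds neurons near rest, had 309.5, 270.1 and 328 in WT and 932, 754 and 754 in NUAK2-CR. The lowest NUAK2-CR library was well above the highest WT library (log2 fold change 1.43, standard error 0.12, adjusted p = 9.78e-07). KCNG1, or Kv6.1, does not form channels alone and modifies other Kv pores. Its values were 113, 118 and 91.4 in WT and 305, 247 and 299.7 in NUAK2-CR, again without overlap (log2 fold change 1.40, standard error 0.17, adjusted p = 2.08e-05).

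KCND3, or Kv4.3, carries the transient A-type current of neurons and heart. It had 45.8, 34.7 and 40.8 in WT and 0, 0 and 0 in NUAK2-CR. With a floor of 3 counts per library, NUAK2-CR was at least 11.3-fold lower (adjusted p = 1.87e-05). If both mates of a read pair were counted, which an excess of even low counts leaves possible, that floor corresponds to 6 counts and the bound to 5.66-fold. Of its exonic bases, 5.3% overlap DDX20 on the opposite strand. The other Kv4 genes did not pass the test: KCND1 had a log2 fold change of -0.52 and KCND2 one of 1.38, with overlapping libraries. KCND2 was called higher with a replicate block, and past the DEG thresholds without WT replicate 3. KCNA7 (Kv1.7) and KCNF1 (Kv5.1) had -0.94 and -0.79, with adjusted p-values of 0.203 and 0.0754. KCNA7 was the one tested KCNA member, and DESeq2 called neither gene, while KCNF1 was called without WT replicate 1.

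**Figure D3:**
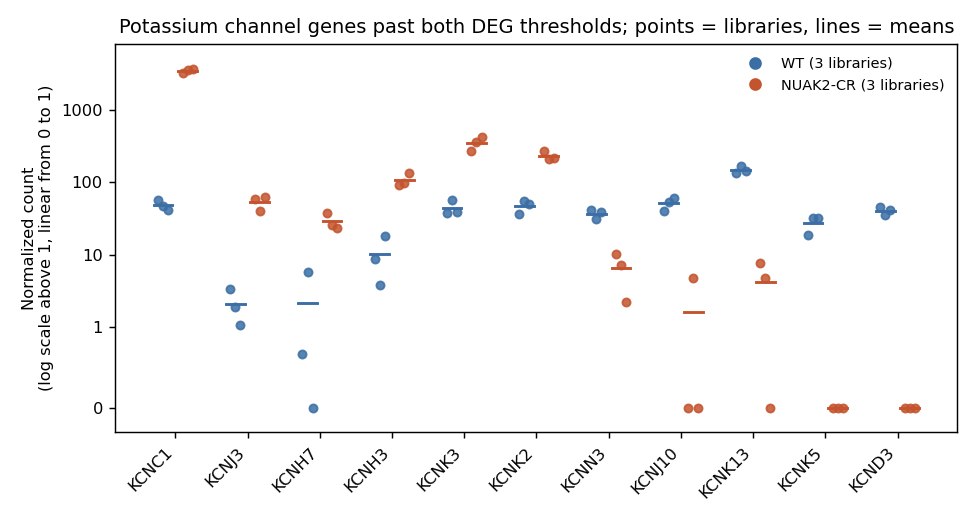
Normalized counts (y axis, log scale above 1 and linear from 0 to 1) of the 11 potassium channel genes past both DEG thresholds, with points for the 3 WT and 3 NUAK2-CR libraries and lines for group means. The WT and NUAK2-CR points do not overlap for any of the 11 genes, which were chosen for their difference in these same libraries. Over all tested genes 61.4% did not overlap. KCNK5 and KCND3 are at 0 in all NUAK2-CR libraries.

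Of the 8 calcium- or sodium-activated genes 3 were tested, all of them calcium-activated, and all 3 were called, 1 upward and 2 downward. Over all tested genes 54.5% were called. KCNMA1 (gene 3778, chromosome 10) is the pore of the BK channel, which opens on calcium and voltage together. It had 5586, 6416 and 6663 in WT and 4023, 3798 and 3527 in NUAK2-CR. The groups did not overlap and the gene fell (log2 fold change -0.72, standard error 0.08, adjusted p = 1.21e-05). KCNN4 (gene 3783, chromosome 19) encodes the intermediate-conductance channel KCa3.1, which opens on calcium alone. Its counts were 1131, 1112 and 1344 in WT and 2969, 3110.3 and 3083 in NUAK2-CR. It rose in every NUAK2-CR library above every WT library (log2 fold change 1.35, standard error 0.08, adjusted p = 5.34e-08). KCNN3, the small-conductance channel SK3, had 41.2, 30.9 and 38.7 in WT and 10.2, 7.24 and 2.196 in NUAK2-CR and fell (log2 fold change -2.51, standard error 0.49, adjusted p = 0.00078). The untested members of this class, among them KCNN2 with 0 counts in each WT library against 6, 8 and 4 in NUAK2-CR, were near the floor.

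Scaled by the length of the MANE Select transcript, as counts per kilobase and per 1000000 normalized counts, the order of the highest potassium channel genes differed between the groups. In WT, KCNMA1 was highest at 26.5 ± 2.40, followed by KCNN4 at 16.3 ± 1.75, KCNAB2 at 13.7 ± 2.08, KCNK1 at 13.05 ± 1.46 and KCNE4 at 7.38 ± 0.459. KCNN4, KCNAB2 and KCNK1, neighbours in that order, lay within their spread. In NUAK2-CR, KCNN4 was highest at 41.6 ± 1.02, then KCNC1 at 21.2 ± 1.42, KCNMA1 at 16.1 ± 1.06, KCNK1 at 8.25 ± 0.300 and KCNE4 at 8.13 ± 0.261. KCNK1 and KCNE4 lay within their spread there. KCNC1 had been at 0.299 ± 0.0486 in WT. As RNA per transcript length, a calcium- and voltage-opened channel thus led in WT and a channel opened by calcium alone led in NUAK2-CR. Without scaling by length KCNMA1 was highest in both groups, with 40.9% of the members' summed counts in WT and 21.5% in NUAK2-CR. KCNC1 followed in NUAK2-CR with 19.4% and KCNN4 with 17.4%.

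**Figure D4:**
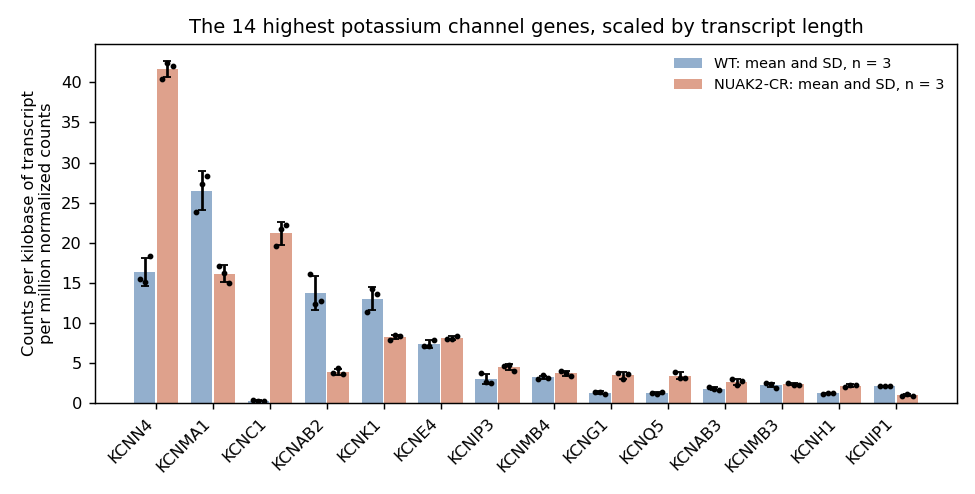
Counts per kilobase of transcript and per 1000000 normalized counts (y axis) of the 14 highest potassium channel genes in WT and NUAK2-CR; bars are means, error bars the SD over 3 libraries and points the libraries. KCNMA1 leads in WT at 26.5 and KCNN4 in NUAK2-CR at 41.6, and KCNC1 stands at 21.2 in NUAK2-CR.

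Of the 16 inward rectifiers 7 were tested, of which 2 rose, 2 fell and 3 did not pass. KCNJ10, the Kir4.1 channel through which astrocytes take up potassium, had 39.9, 53.1 and 61.3 in WT and 0, 4.82 and 0 in NUAK2-CR. The 4 counts in NUAK2-CR replicate 2 were its only ones in that group (log2 fold change -4.90, standard error 0.71, adjusted p = 7.33e-05), and with replicate 2 left out NUAK2-CR was at least 14.5-fold lower, or 7.24-fold if both mates were counted. The log2 fold change was -4.30 when NUAK2-CR replicate 3 was left out. Beside it, GFAP fell by 2.56 on the log2 scale and S100B, a calcium-binding protein of astrocytes, by 2.60, whereas SLC1A3, the glial glutamate transporter, had 0.26 (adjusted p = 0.0564). The part of these markers in the result was not tested. KCNJ3, or Kir3.1, is a subunit of the G-protein-gated channels of neurons and atrium. Its counts were 3.32, 1.93 and 1.07 in WT and 58.4, 39.8 and 62.6 in NUAK2-CR, and it rose (log2 fold change 4.49, standard error 0.50, adjusted p = 8.51e-06) from 5, 2 and 1 reads in WT. The ATP-sensitive channel is built from KCNJ8 (Kir6.1) or KCNJ11 (Kir6.2) with a sulfonylurea receptor. KCNJ8 had 152, 172 and 218 in WT and 90.2, 50.7 and 72.5 in NUAK2-CR and fell (log2 fold change -1.34, standard error 0.24, adjusted p = 0.000469). KCNJ11, named after its values were seen, rose from 9.47 ± 3.49 to 29.4 ± 11.9 (log2 fold change 1.57, adjusted p = 0.0129), a call lost when WT replicate 3 or NUAK2-CR replicate 1 was left out. The receptor gene ABCC9, the neighbour of KCNJ8 on chromosome 12, was below the count filter, with raw counts of 16, 8 and 22 in WT against 0, 0 and 2 in NUAK2-CR. ABCC8, the neighbour of KCNJ11 on chromosome 11, had 0 raw counts in WT against 3, 2 and 0 in NUAK2-CR, all within the floor. KCNJ2, KCNJ12 and KCNJ14 of the strong rectifiers had log2 fold changes of -0.46, 1.28 and 0.51 and overlapping libraries, and KCNJ12 may share reads with its near-identical copy KCNJ18. KCNJ2 was called lower without WT replicate 1, and KCNJ12 was called higher and past the DEG thresholds without WT replicate 3. KCNJ4, below the count filter, had raw counts of 2, 0 and 2 in WT and 8, 19 and 10 in NUAK2-CR. It was higher past the DEG thresholds by DESeq2 and with any 1 WT library or NUAK2-CR replicate 1 left out.

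Of the 15 two-pore domain genes 8 were tested, of which 2 rose, 3 fell and 3 did not pass. Increases and decreases were both large here. KCNK3, or TASK-1, a leak channel closed by external acid, had 37.2, 56.9 and 38.7 in WT and 268, 358 and 423 in NUAK2-CR. It rose in all 3 NUAK2-CR libraries (log2 fold change 2.99, standard error 0.23, adjusted p = 3.96e-07). KCNK2, or TREK-1, a leak channel opened by membrane stretch, had 35.9, 54.99 and 50.5 in WT and 269, 206 and 213 in NUAK2-CR and rose as well (log2 fold change 2.30, standard error 0.22, adjusted p = 3.01e-06), although the 50 tested genes on each side of it on chromosome 1 had a median of -0.39. KCNK13, or THIK-1, had 136, 165 and 142 in WT and 7.62, 4.82 and 0 in NUAK2-CR. It fell nearly to the floor (log2 fold change -5.17, standard error 0.47, adjusted p = 1.68e-06), with log2 fold changes of -5.91 without NUAK2-CR replicate 1 and -4.54 without NUAK2-CR replicate 3. KCNK5, or TASK-2, a leak channel opened by external alkali, had 18.6, 31.8 and 32.2 in WT and 0, 0 and 0 in NUAK2-CR. NUAK2-CR was at least 7.71-fold lower, or 3.86-fold if both mates were counted (adjusted p = 0.000118). KCNK1, or TWIK-1, the highest of this class in WT per transcript length, had 881, 1096 and 1048 in WT and 612, 657 and 643 in NUAK2-CR and fell (log2 fold change -0.66, standard error 0.10, adjusted p = 0.000118). KCNK6, KCNK10 and KCNK12 had 0.10, 0.23 and -1.11, and KCNK12 was called without NUAK2-CR replicate 2. Over the class, normalized counts summed to 1369.7 ± 181 in WT and 1302 ± 66.7 in NUAK2-CR, so that the exchange among its members left a sum that moved by less than the SD in WT.

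The auxiliary subunits had 12 of 16 genes tested, of which 2 rose, 2 fell and 8 did not pass. By edgeR 4 had an unadjusted p under 0.05, and DESeq2 called 4 as well at an adjusted p under 0.05. With the further limit on the log2 fold change, 0 passed the DEG thresholds by edgeR. KCNAB2, a cytoplasmic beta subunit of Kv1 channels, had 2523, 1927 and 1997 in WT and 589, 685 and 579 in NUAK2-CR and fell (log2 fold change -1.80, standard error 0.11, adjusted p = 7.12e-08). The Kv1 pores themselves were low. KCNA7, the one tested, had means of 13.8 ± 4.35 in WT and 7.10 ± 5.54 in NUAK2-CR, and the others were near 0. KCNAB3, named after its values were seen, rose (log2 fold change 0.56, standard error 0.15, adjusted p = 0.00834). The KCNIP genes encode calcium-binding partners of Kv4 channels. KCNIP1 had 161, 165 and 159 in WT and 69.8, 88.0 and 69.2 in NUAK2-CR and fell (log2 fold change -1.10, standard error 0.19, adjusted p = 0.000403), as KCND3 did. KCNIP3, which is also known as the transcriptional repressor DREAM, had 404, 289 and 276 in WT and 504, 519.8 and 437 in NUAK2-CR and rose (log2 fold change 0.58, standard error 0.15, adjusted p = 0.00634). The beta subunits of BK did not pass the test, with a lowest adjusted p of 0.132, 0 of 3 at an unadjusted p under 0.05 and 0 called by DESeq2. Of these KCNMB4, the neuronal form, had 541, 613 and 560.0 in WT and 717, 657 and 589.5 in NUAK2-CR. The libraries overlapped (log2 fold change 0.20, standard error 0.10), while the pore KCNMA1 fell. KCNE4, a single-pass subunit that inhibits KCNQ1, had 774, 781 and 864 in WT and 869, 876 and 921 in NUAK2-CR, which did not overlap but did not pass the test (log2 fold change 0.14, adjusted p = 0.183). KCNMB3 and KCNIP4 share 38% and 38.5% of their exonic bases with PIK3CA and PACRGL on the opposite strand, so their values are uncertain.

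The positions of the members were compared with the genes around them. Chromosome 1 held 8 tested members, of which KCNAB2, KCND3, KCNJ10, KCNK1 and KCNN3 fell, KCNK2 and KCNH1 rose and KCNC4 did not pass. The 50 tested genes on each side of these members had medians of -0.55 to -0.39, against -0.01 over all genes. For KCNK1, which fell by 0.66, that regional shift was -0.42, and for NUAK2, which fell by 0.93, it was -0.44. Elsewhere it was -0.42 for KCNIP1 on chromosome 5, which fell by 1.10, and -0.43 for KCNAB3 on chromosome 17, which rose. The 7 tested members on chromosome 2, with regional medians of 0.01 to 0.19, included 4 that rose (KCNK3, KCNJ3, KCNH7 and KCNIP3) and 3 that did not pass. For KCNC1 on chromosome 11 the regional median was 0.04, for KCNK13 on chromosome 14 it was 0.01 and for KCNN4 on chromosome 19 it was 0.17. The part of these regional shifts in the results was not tested.

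Markers of cell types known for these channels were read in the same libraries. Of 10 neuronal markers 4 rose and 2 fell: SNAP25, a synaptic fusion protein, rose from 64.6 ± 10.2 to 754 ± 74.9 and GAP43, a growth cone protein, fell from 582 ± 90.2 to 59.5 ± 5.58. STMN2, a neuronal microtubule regulator, rose from 2.05 ± 2.49 to 82.7 ± 15.3, while RBFOX3, which defines mature neurons, had 12.6 in WT and 7.98 in NUAK2-CR and ELAVL4 was at 0 in every library. The neuronal list summed to 16556 to 19579 in WT and 13732 to 14556 in NUAK2-CR. Most of that sum was TUBB3, a tubulin, which fell, while among the channels described here as neuronal KCNC1, KCNH3, KCNQ5 and KCNJ3 rose, KCND3 fell and KCNMB4 did not pass the test. Of 6 smooth muscle and pericyte markers, ACTA2, the smooth muscle actin, rose from 93.0 ± 4.15 to 2138 ± 99.6 and NOTCH3 rose. CNN1 and RGS5 fell, and MYH11 and DES, which define muscle, were near 0. The smooth muscle list summed to 450.4 to 491 in WT and 2526 to 2670.1 in NUAK2-CR, and most of that rise was ACTA2. Of 6 oligodendrocyte lineage markers PDGFRA and MBP fell, with OLIG2 and MOG at 0, and of 6 leukocyte markers CSF1R and CD68 fell, with AIF1, CX3CR1 and P2RY12 at 0. Of 4 endothelial markers PECAM1 and VWF rose, PECAM1 from raw counts of 2, 0 and 0 in WT. CDH5 did not pass the test (adjusted p = 0.261). CLDN5, below the count filter, had raw counts of 5, 3 and 8 in WT against 0, 2 and 0 in NUAK2-CR. The endothelial list summed to 25.8 to 34.5 in WT and 86.8 to 90.2 in NUAK2-CR. Over all tested genes 26.3% were called higher and 28.2% lower. The part of these marker lists in the potassium channel results was not tested.

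A list of 48 other genes that move potassium or partner its channels gave the wider setting. Of 24 tested, 7 rose, 7 fell and 10 did not pass, with a median log2 fold change of -0.09. The share called was 58.3%, close to the 54.5% over all tested genes (26.3% higher and 28.2% lower). The sodium-potassium pump keeps up the gradient that the channels use. Its beta subunits include ATP1B1, which had 5408, 6315 and 6717 in WT and 2270.4, 2390.3 and 2308 in NUAK2-CR. ATP1B1 fell (log2 fold change -1.40, standard error 0.08, adjusted p = 4.43e-08), beside a regional median of -0.53. Of 7 tested pump genes 4 fell and 1, another beta subunit, rose. ATP1B1 was not among the 2 pump genes with the highest means and was named to account for the class. The cotransporters had 11 tested genes, of which 4 rose and 3 fell. SLC12A2, or NKCC1, which carries sodium, potassium and chloride into cells, rose from 2126 ± 189 to 5353 ± 275 (log2 fold change 1.33, standard error 0.08, adjusted p = 4.4e-08), and its upstream kinase WNK1 rose by a log2 fold change of 0.34. The related kinases WNK3 and WNK2 fell past the DEG thresholds, WNK3 from 142 ± 30.8 to 9.42 ± 3.09 and WNK2 from 40.7 ± 9.66 to 3.92 ± 1.21. Of the other channels that pass potassium, 2 of 5 tested rose: HCN2, a cation channel opened by hyperpolarization, had a log2 fold change of 0.94 and the lysosomal channel TMEM175 one of 0.32. TMEM38B had -0.10 (adjusted p = 0.542). Of the partner genes AMIGO1, a membrane adhesion protein that binds Kv channels, was the one tested, with -0.26 (adjusted p = 0.147). In the same cells, RNA of the pump subunit ATP1B1 was thus lower, while that of another pump beta subunit, NKCC1 and KCNN4 was higher.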

How the data were processed

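Polyadenylated RNA of 3 WT and 3 NUAK2-CR libraries was sequenced as read pairs. The authors used Trimmomatic for trimming and HISAT2 for alignment to hg38, and deposited the raw counts per gene that featureCounts gave at default settings. The gene annotation is not given in the sources used here. Counting at default settings does not use strand, so reads from overlapping genes on opposite strands cannot be told apart. Of counts from 1 to 10, 65.2 to 69.3% per library were even, and whether each mate of a pair was counted is not stated in the sources used here. Of 28395 identifiers, 27745 matched a symbol. The channel genes, the lists and the tests were chosen with earlier results of these data known.

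Counts were analysed in R 4.3.3 with edgeR 4.0.16 (filterByExpr, TMM scaling, a prior count of 0.125, glmQLFit and glmQLFTest), and p-values of the 14873 genes tested were adjusted by Benjamini-Hochberg. A call needed an adjusted p under 0.05, and a DEG also a log2 fold change over 2 in size, the study's thresholds. No covariate was used. The procedure was tested on simulated data first. Replicates differed by more than counting noise, with a chi-square of 6.38 to 58.1 per gene. A library with 0 counts was given a floor of 3 counts, which covers counting error only, and a floor of 6 counts was added after the data were seen. Lengths are those of MANE Select transcripts in GENCODE 44, found for all 95 members. Promoter windows came from RefSeq.

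Named members passed the DEG thresholds, or were called with a log2 fold change over 1 in size and a normalized mean of 100 or more where they were high, or were among the 10 with the highest mean. Of the other potassium genes, the DEGs and the 2 highest of each class were named. Other names are given as chosen after the values were seen, or to account for a class. Alternatives were DESeq2 1.42.0, other scaling, other filters on low counts, a prior count of 2, a log2 fold change over 1, a replicate block and each library left out. 2 genes that the rules cover are not reported here by name, and they stay in the counts and sums.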

Additional observations from a re-analysis of the deposited data

How the results depend on the processing

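With DESeq2 and with no filter on low counts, 17 potassium channel genes were higher and 13 lower, 82 members were tested and all 26 calls were shared. The added calls, KCNJ4, KCNJ15, KCNN2 and KCNT2, also passed the DEG thresholds, for 9 DEGs higher and 6 lower. The median log2 fold change was then -0.22 by DESeq2 and -0.20 with no filter, against 0.10. Requiring at least 10 counts in every library left 30 members, since that filter removes genes absent from a group: 10 were higher and 6 lower, 3 passed the DEG thresholds upward and 0 downward by edgeR, the median was 0.17, and 4 of the other potassium genes were lower. The 8 DEGs it lost were among those removed. A log2 fold change over 1 in size gave 11 higher and 9 lower. Leaving out each library gave 14 to 16 higher and 11 to 14 lower calls, 6 to 9 DEGs higher and 5 to 6 lower, 5 to 7 and 6 to 8 calls among the other potassium genes, a median of 0.026 without WT replicate 1 to 0.194 without NUAK2-CR replicate 2, and -1.02 to -0.80 for NUAK2. Another scaling gave the same 26 calls.

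Deviations of same-numbered libraries had correlations of -0.04 to 0.05, against -0.07 to 0.02 for other pairs. Deviations from a mean of 3 libraries cannot show whether the numbers mark a shared batch. With a replicate block, 15 members were higher and 12 lower, 6 DEGs were higher and 6 lower, 7 and 6 of the other potassium genes were called, NUAK2 was at -0.92 and the median at 0.10. The log2 fold changes of the 23 named members kept their direction and side of the threshold in all 291 values under the alternatives. With a prior count of 2, KCND3 was at -4.41, KCNK5 at -3.87, KCNJ10 at -3.89 and KCNH7 at 2.92, so the sizes of genes near 0 depend on that setting.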

Other observations

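KCNC1 was looked at beside its neighbours after its values were seen. Distances were taken between the lower genomic coordinates of the genes, whatever their strand, and do not give the distance between transcription starts. Within 500 kb by that measure, 5 other genes were tested, of which 3 were higher and 2 not called. Over all tested genes 26.3% were called higher. SERGEF, at 53.3 kb on the downstream side, had 443 normalized counts in WT and 426 in NUAK2-CR (log2 fold change -0.06, standard error 0.12). NCR3LG1, which lies 383 kb upstream and encodes a ligand of natural killer cells, rose from 232 to 784 (log2 fold change 1.76). KCNJ11, at 350 kb upstream, and NUCB2 rose as well, with log2 fold changes of 1.57 and 0.40, and SAAL1 had 0.07. The value of 6.12 for KCNC1 was the largest in this stretch.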
